A study of Homo sapiens with 6 samples.

Results

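The genes described here are 37 genes of DNA repair and of the DNA damage checkpoint, listed by name and grouped by repair pathway. Probe sets were taken where the platform annotation assigned them to 1 of these genes alone, which left 33 genes with 72 probe sets, of 19775 named genes and 54613 tested probe sets in all. BRCA2, FANCA and FANCD2 were not analysed here, and the 2 PMS2 probe sets were left out because they are shared with its copy PMS2CL. For counts and means per gene the probe set with the highest mean over the 6 arrays stood for each gene. Expression was measured in BL2, an established Burkitt lymphoma cell line grown in complete RPMI medium and electroporated with siRNA. In 3 cultures the siRNA was a scrambled control and in 3 it was a pool of 4 siRNAs against LEF1, and all 6 cultures had been electroporated. The labels place 1 array of either group in each of batches 1, 2 and 3. Values are on the log2 scale, where a difference of -1 means that the signal fell to 0.5 of the control. An error after ± is the SD of the 3 arrays in a group, and SE is the standard error in the fit with batch as block. A line of tumour cells is a single cell source, so the spread is between cultures of 1 line.

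Cells mend DNA by several routes. Double-strand breaks are sensed by the MRE11-RAD50-NBN complex and rejoined by end joining, or copied from the sister chromatid by homologous recombination, which is active in S and G2 phase. The kinases ATM and ATR signal damage to CHEK2 and CHEK1, which hold the cell cycle. Germinal-centre B cells, from which Burkitt lymphoma derives, use base excision, mismatch repair and end joining during antibody gene diversification, and the transcription of many recombination and checkpoint genes follows the cell cycle.

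LEF1 itself fell at its brightest probe set from 11.04 ± 0.43 with scrambled siRNA to 8.32 ± 0.30 with LEF1 siRNA (limma adjusted p = 0.0213 without block). The next brightest LEF1 probe set fell by 1.84 (limma adjusted p = 0.00418 without block). The dimmest fell by only 0.29, to 81.5% of the control signal (limma adjusted p = 0.284 without block, 0.00695 with batch as block). Among the B-lineage markers CD79A, CD79B, MS4A1, PAX5, CD22, MME and BCL6 the control means ran from 10.34 for CD22 to 13.55 for MS4A1. The defining T cell markers CD3D, CD3E and CD3G, the monocyte markers CD14 and LYZ and the epithelial marker EPCAM lay between 6.13 and 7.09, near or under 6.91, the median probe set, a range where signal is mostly background. The T cell receptor chain gene CD247, at 8.10, and the collagen gene COL1A1, at 8.02, were above it.

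In the test without block, none of the 33 genes passed at an adjusted p of 0.05, and none of their 72 probe sets did. The lowest limma adjusted p of a member probe set was 0.178, and 6 of 33 genes had an unadjusted p under 0.05 (18.2%, against 9.89% of all genes). In that test 0.0253% of all genes and 0.0183% of all probe sets passed. With batch as a block, which compares the 2 arrays of each batch, 2 of the 33 chosen probe sets passed. CHEK2, the checkpoint kinase gene downstream of ATM, fell, and ATR, the kinase gene of the replication checkpoint, rose. In RNA from bulk cultures, fewer cells that express a gene and less of its RNA per cell cannot be told apart. Of all genes 1.7% passed as lower and 6.73% as higher, 8.43% in either direction, so 2 of 33 is a share near the background. Over all their probe sets 7 of 72 passed, 5 lower and 2 higher, against 1.51% and 4.58% of all probe sets, 6.09% in either direction. These 7 probe sets named CHEK2, CHEK1, FANCI, LIG4, ATR and ATM. At an unadjusted p under 0.05 this fit had 19 of the 33 genes, 14 lower and 5 higher (57.6%, against 21.1% of all genes). The calls below are from this fit unless stated otherwise.

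Small differences pointing down were more frequent than these calls. The chosen probe sets of 22 of 33 genes differed by less than 0, as did 40.8% of all genes. Without batch 1, 2 or 3 the counts were 17, 19 and 24 of 33, beside 40.2%, 47.7% and 37.2% of all genes. In 13 genes the LEF1 siRNA array was lower in each of the 3 batches, which 13.7% of all genes showed, and in 6 it was higher in each, which 26% of all genes showed. The 13 were BARD1, BLM, CHEK2, CLSPN, FANCG, FANCI, RAD54L, UNG, XRCC1, XRCC3, XRCC4, XRCC5 and XRCC6. The 6 were ATR, LIG4, MRE11, PARP1, PRKDC and RAD51AP1. The median difference over the 33 genes was -0.036, beside 0.019 over all genes. It was -0.087, -0.11 and 0.027 in batches 1, 2 and 3, beside 0.012, 0.051 and 0.0027 over all genes. Differences of the 33 ran from -0.34 to 0.28. In 5 genes (CHEK2, CLSPN, XRCC1, XRCC3 and XRCC4) all LEF1 siRNA values lay below all control values, as in 4.03% of all genes, and in ATR they lay above, as in 9.52%. For XRCC4 and CLSPN the groups were barely apart. The highest LEF1 siRNA value and the lowest control value were 8.626 and 8.630 for XRCC4, and 7.560 and 7.570 for CLSPN. The chosen probe sets had a median signal of 9.48 and a median absolute difference of 0.14, and the values over all genes were 7.33 and 0.061.

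**Figure D1:**
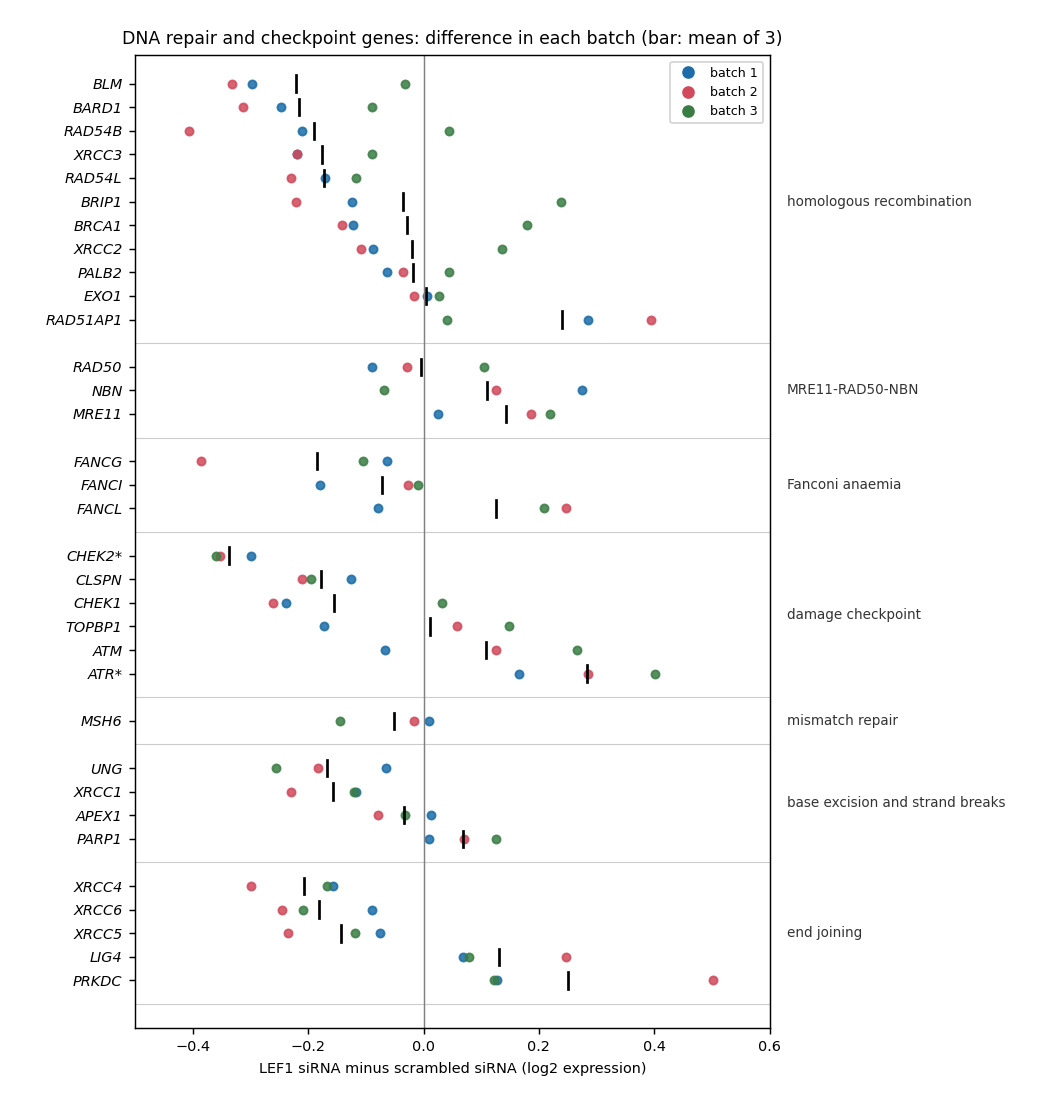
Difference between the LEF1 siRNA and the scrambled siRNA array of each batch, in log2 expression, for the chosen probe set of 33 DNA repair and checkpoint genes, grouped by pathway. Coloured points are the 3 batches, black bars their mean, and an asterisk marks the 2 genes past the threshold with batch as block, CHEK2 at -0.34 and ATR at 0.28.

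How many genes passed depended on how the arrays were scaled. With equal array medians 3 chosen probe sets fell (BARD1, CHEK2 and XRCC4) and 1 rose, beside 1.96% and 5.02% of all genes. After cyclic loess normalization 7 fell and 1 rose, beside 2.57% and 5.29%. After quantile normalization 9 fell and 1 rose, beside 2.88% and 5.05% of all genes. The 9 were BARD1, RAD54L, XRCC3, BLM, FANCG, CHEK2, CLSPN, XRCC1 and XRCC4, and ATR was the gene that rose in each case. Scaling to the poly-A spike-ins, RNAs of known amount added before labelling, lowers every difference by 0.14. Then 16 of 33 fell and none rose, beside 21.6% and 2.46% of all genes. CHEK2 fell under each of these scalings. Differences below 0 were found in 24 of 33 genes with equal array medians, beside 51.6% of all genes. They were found in 23 after cyclic loess (48.3%) and in 24 after quantile normalization (50.3%). With scaling to the poly-A spike-ins they were found in 29 of 33 (87.9%, beside 85.9% of all genes). The direction of calls over all probe sets shifted as well, from 75.2% higher in the deposited values to 56.2% after quantile normalization, 60.1% after cyclic loess and 6.48% when scaled to the poly-A spike-ins.

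The damage checkpoint held both genes called at the chosen probe set. CHEK2 read 10.20, 10.04 and 10.16 with scrambled siRNA in batches 1, 2 and 3, and 9.90, 9.69 and 9.80 with LEF1 siRNA. The groups did not overlap. CHEK2 fell by 0.34 (SE 0.056), to 79.1% of the control signal, with batch differences of -0.30, -0.35 and -0.36 (limma adjusted p = 0.00275 with batch as block, 0.207 without). RefSeq names 6 pseudogenes of CHEK2, and whether its single probe set also reads their transcripts was not tested.

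ATR, which senses stalled replication forks, read 9.20, 9.05 and 9.17 with scrambled siRNA and 9.37, 9.33 and 9.57 with LEF1 siRNA. The lowest LEF1 siRNA value lay above the highest control value. ATR rose by 0.28 (SE 0.061), with batch differences of 0.17, 0.28 and 0.40 (limma adjusted p = 0.0129 with batch as block, 0.337 without). That call was lost without batch 2 (limma adjusted p = 0.0668), without batch 3 (0.056) and when scaled to the poly-A spike-ins (0.102). A second ATR probe set differed by 0.13 and a dim one by 0.018, and neither passed (limma adjusted p = 0.245 and 0.946).

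ATM, the kinase gene of the double-strand break response, has 6 probe sets. One of them read 8.19, 8.16 and 8.19 with scrambled siRNA and 8.40, 8.51 and 8.54 with LEF1 siRNA. These groups did not overlap either, which 7.88% of all probe sets showed in that direction. At this probe set ATM rose by 0.30 (SE 0.059; limma adjusted p = 0.00681 with batch as block, 0.178 without), a call lost without batch 2 (0.059) and when scaled to the poly-A spike-ins (0.0731). The brightest ATM probe set went from 8.66 ± 0.05 to 8.77 ± 0.20 and did not pass (limma adjusted p = 0.473). Its batch differences were -0.07, 0.13 and 0.27, and another probe set differed by 0.10. The 3 other ATM probe sets had means below 6.91 and differed by between -0.03 and 0.01.

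CHEK1, the checkpoint kinase gene downstream of ATR, was called at the second brightest of its 4 probe sets. It read 9.14, 8.80 and 9.26 with scrambled siRNA and 8.83, 8.51 and 9.13 with LEF1 siRNA. The groups overlapped, because the batches differed by more than the siRNAs did. Within batches CHEK1 differed by -0.31, -0.29 and -0.13, a fall of 0.24 (SE 0.060; limma adjusted p = 0.026 with batch as block, 0.843 without). Without batch 1 or batch 2 it did not pass (limma adjusted p = 0.101 and 0.162). The brightest CHEK1 probe set differed by -0.24, -0.26 and 0.03 (limma adjusted p = 0.231). The next after the called one, with a mean of 8.47, was almost level. It had batch differences of -0.10, -0.02 and 0.05 (limma adjusted p = 0.911). The dimmest, with a mean of 6.56, differed by -0.03.

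CLSPN encodes claspin, the adaptor through which ATR activates CHEK1. Its chosen probe set read 7.62, 7.57 and 7.76 with scrambled siRNA and 7.49, 7.36 and 7.56 with LEF1 siRNA. The groups did not overlap, but the difference of -0.18 did not pass (limma adjusted p = 0.0891). All 4 CLSPN probe sets lay below 0, at -0.18, -0.08, -0.18 and -0.10 from the brightest to the dimmest, and none passed. Their means were 7.56, 7.35, 6.74 and 6.30, so the dimmer ones lay under 6.91, where signal is mostly background. TOPBP1, an activator of ATR, differed by 0.01, with batch differences of -0.17, 0.06 and 0.15.

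**Figure D2:**
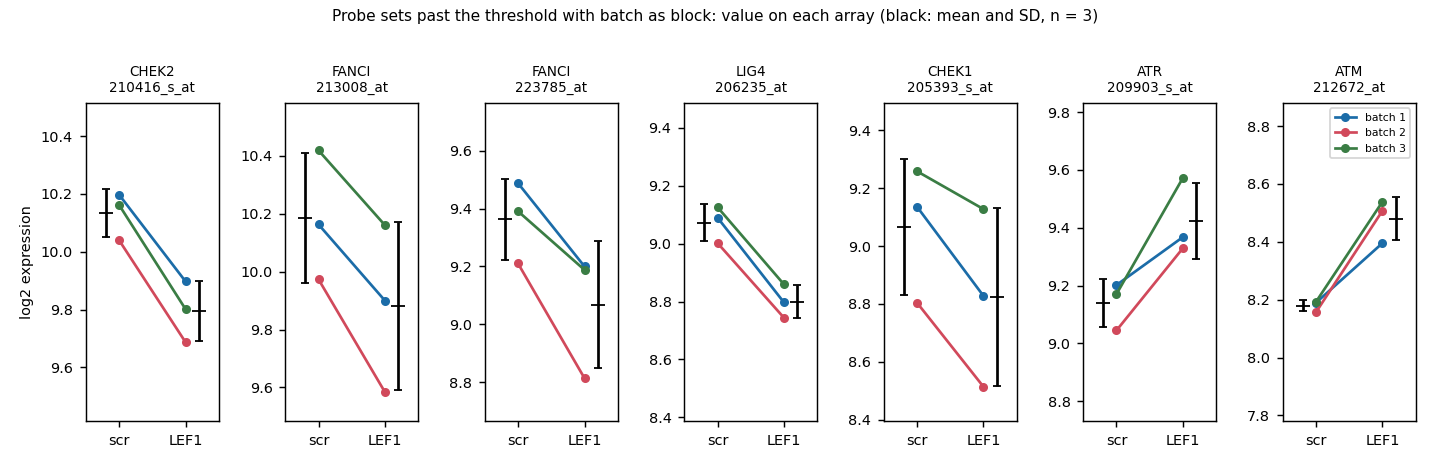
Log2 expression on each array for the 7 probe sets past the threshold with batch as block, from CHEK2 to ATM. Coloured lines join the scrambled siRNA (scr) and the LEF1 siRNA (LEF1) array of 1 batch, and black bars give the mean and SD of 3 arrays. All lines of CHEK2, FANCI, LIG4 and CHEK1 go down and all lines of ATR and ATM go up. Batch 2 is lowest in both groups for every probe set shown except that of ATM, where it is lowest with scrambled siRNA only.

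The promoters of these 4 kinase genes are shown because the called probe sets of CHEK2 and CHEK1 fell and those of ATR and ATM rose. Each sequence is the 250 bases before the start of the RefSeq transcript listed first (GRCh38.p14), written along the gene's strand. Capitals mark words that match a factor's motif. They are ATTGG, which is CCAAT on the other strand, the box bound by NF-Y, and TTTGAA, the word of the cell cycle homology region.
CHEK2 (chr22:28741821-28742070, minus strand): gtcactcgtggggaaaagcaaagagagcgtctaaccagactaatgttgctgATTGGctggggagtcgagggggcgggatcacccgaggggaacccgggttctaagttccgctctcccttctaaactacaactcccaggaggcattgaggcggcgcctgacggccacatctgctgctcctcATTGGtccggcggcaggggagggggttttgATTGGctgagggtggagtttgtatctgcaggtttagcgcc
CHEK1 (chr11:125625979-125626228, plus strand): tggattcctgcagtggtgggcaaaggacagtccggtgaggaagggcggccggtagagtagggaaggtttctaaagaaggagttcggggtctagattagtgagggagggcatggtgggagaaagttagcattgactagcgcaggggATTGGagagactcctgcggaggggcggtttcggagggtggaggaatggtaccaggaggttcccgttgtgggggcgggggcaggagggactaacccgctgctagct
ATR (chr3:142578734-142578983, minus strand): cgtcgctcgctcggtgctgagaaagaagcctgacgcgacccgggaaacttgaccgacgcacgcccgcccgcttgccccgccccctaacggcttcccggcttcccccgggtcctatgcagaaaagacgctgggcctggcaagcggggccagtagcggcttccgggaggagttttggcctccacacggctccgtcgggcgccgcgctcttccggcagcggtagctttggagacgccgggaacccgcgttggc
ATM (chr11:108222817-108223066, plus strand): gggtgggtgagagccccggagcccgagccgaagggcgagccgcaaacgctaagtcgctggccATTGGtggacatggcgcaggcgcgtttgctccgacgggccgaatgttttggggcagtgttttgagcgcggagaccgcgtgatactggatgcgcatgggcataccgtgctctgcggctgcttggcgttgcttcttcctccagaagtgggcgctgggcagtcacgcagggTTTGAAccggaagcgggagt
The CHEK2 window holds 3 CCAAT boxes, the CHEK1 and ATM windows 1 each and the ATR window none. The ATM window also holds the single TTTGAA. None of the 4 held the E2F words TTCCCGC or TTGGCGC or the LEF1/TCF words CTTTGAT or CTTTGAA on either strand, which says only that these letters are not in this window. CTTTGAA contains TTTGAA, so those 2 searches overlap.

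Promoters were in the RefSeq table for 32 of the 37 genes, all except FANCI, NBN, PRKDC, RAD54B and XRCC5. CCAAT was found on either strand in 17 of 32 (53.1%), against 33.0% of 27305 promoters of the same length. An E2F word was found in 9 of 32 (28.1%, against 7.95%), namely BLM, FANCG, FANCL, PARP1, RAD51AP1, RAD54L, TOPBP1, UNG and XRCC1. TTTGAA was found in 3 (9.38%, against 13.6%) and a LEF1/TCF word in 1, PARP1, as CTTTGAT (3.12%, against 6.03%). The 15 measured genes with CCAAT had a median difference of -0.16 and the 13 without it one of -0.0041. With an E2F word the median was -0.16 over 9 genes, and -0.033 over 19 genes without. These medians are a description and were not tested, and a match of letters is not a bound site.

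In homologous recombination none of the 11 chosen probe sets passed, while 6 had an unadjusted p under 0.05 (54.5%, against 21.1% of all genes). Their mean difference was -0.11 in batch 1, -0.15 in batch 2 and 0.035 in batch 3. BLM, the helicase gene that dissolves recombination intermediates, read 9.69, 9.51 and 9.79 with scrambled siRNA and 9.40, 9.18 and 9.76 with LEF1 siRNA. It was lower in batches 1 and 2 and almost level in batch 3, and its difference of -0.22 did not pass (limma adjusted p = 0.0696). BARD1, the partner of BRCA1 in a ubiquitin ligase, read 10.58, 10.35 and 10.49 against 10.34, 10.04 and 10.40, a difference of -0.22 just outside the threshold (limma adjusted p = 0.052). A dimmer BARD1 probe set differed by 0.12 in the other direction.

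BRCA1 and BRIP1, a helicase gene whose protein binds BRCA1, changed sign between batches. BRCA1 read 9.51, 9.44 and 9.52 with scrambled siRNA and 9.39, 9.30 and 9.70 with LEF1 siRNA, so that it was lower in batches 1 and 2 and higher in batch 3. BRIP1 behaved alike, with batch differences of -0.12, -0.22 and 0.24, as did XRCC2, another gene of the pathway, at -0.09, -0.11 and 0.14. The mean differences of these 3 genes were between -0.04 and -0.02.

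The strand exchange motor genes RAD54L and RAD54B differed by -0.17 and -0.19, and XRCC3, which also acts in recombination, by -0.18 (limma adjusted p = 0.102, 0.182 and 0.0997). XRCC3 was lower in every batch without overlap, at 7.77, 7.93 and 7.78 against 7.55, 7.71 and 7.69. RAD54B was lower only in batches 1 and 2, at -0.21, -0.41 and 0.04. PALB2, which links BRCA1 to BRCA2, differed by -0.02, and the resection nuclease gene EXO1 by 0.005, with no batch beyond 0.03.

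RAD51AP1, whose protein promotes strand pairing, stood on the other side of 0. It read 9.93, 9.32 and 10.07 with scrambled siRNA and 10.22, 9.72 and 10.11 with LEF1 siRNA. Batch 2 held the lowest value of both groups, and its difference of 0.24 had batch values of 0.29, 0.39 and 0.04 (limma adjusted p = 0.0535). Without batch 3 the BLM, BARD1 and RAD54B differences passed as lower and RAD51AP1 as higher, beside 1.87% and 7.36% of all genes. Without batch 1, and likewise without batch 2, none of the 11 genes of the pathway passed. Below 0 lay 9 of the 11 with all batches, 5 without batch 1, 6 without batch 2 and 10 without batch 3. The medians were -0.036, 0.0042, -0.0099 and -0.17, so the lower readings in this pathway depended on the batches used.

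The break-sensing complex showed no call, and 1 of its 3 genes had an unadjusted p under 0.05, beside 21.1% of all genes. MRE11, the nuclease subunit, read 8.80, 8.54 and 8.78 with scrambled siRNA and 8.83, 8.72 and 9.00 with LEF1 siRNA, a difference of 0.14 (limma adjusted p = 0.225). RAD50, its structural partner, differed by less than 0.03 at each of its 3 probe sets. NBN, the subunit that recruits ATM, differed by 0.11 at the brightest of 5 probe sets, with batch differences of 0.28, 0.13 and -0.07, and by between -0.04 and 0.14 at the others.

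Among the Fanconi anaemia genes, which repair DNA crosslinks, FANCI was called at 2 of its 3 probe sets and not at the brightest. FANCI encodes the partner of FANCD2 in the clamp that is loaded at a crosslink. One probe set read 10.16, 9.97 and 10.42 with scrambled siRNA and 9.90, 9.58 and 10.16 with LEF1 siRNA. It fell by 0.30 (SE 0.058), with batch differences of -0.26, -0.39 and -0.26 (limma adjusted p = 0.00611 with batch as block, 0.736 without). The other read 9.49, 9.21 and 9.39 against 9.20, 8.81 and 9.19, and also fell by 0.30 (limma adjusted p = 0.00865 with batch as block, 0.577 without). The groups of the first overlapped and those of the second did not, as in 4.59% of all probe sets. Both calls were lost without batch 2 (limma adjusted p = 0.0659 and 0.0908). The brightest FANCI probe set read 10.42, 9.94 and 10.65 against 10.24, 9.92 and 10.64, a difference of -0.07 (limma adjusted p = 0.638). FANCG, a subunit of the core ubiquitin ligase, differed by -0.19, of which batch 2 gave -0.39 and the others -0.06 and -0.11. FANCL, the catalytic subunit, differed by 0.13, with batch 1 at -0.08 and the others at 0.25 and 0.21.

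Mismatch repair was represented by MSH6, which recognises base mismatches. Its brightest probe set differed by -0.05 and the next by -0.20, with batch differences of 0.004, -0.37 and -0.25 (limma adjusted p = 0.113), and none of its 4 passed. In base excision and single-strand break repair none of 4 genes passed, while 2 had an unadjusted p under 0.05, as had 21.1% of all genes. UNG, the uracil glycosylase gene, read 10.98, 10.81 and 11.22 with scrambled siRNA and 10.92, 10.63 and 10.96 with LEF1 siRNA. It was lower in each batch, by 0.17 on average, but its groups overlapped (limma adjusted p = 0.134). The scaffold gene XRCC1 read 8.10, 8.22 and 8.11 against 7.98, 7.99 and 7.99, without overlap (difference -0.16, limma adjusted p = 0.151). The abasic site nuclease gene APEX1 differed by -0.03 and the strand-break sensor gene PARP1 by 0.07.

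In end joining none of the 5 chosen probe sets passed, although each had an unadjusted p under 0.05, which 21.1% of all genes had, and each had the same sign in all 3 batches. XRCC4, the scaffold of the ligase complex, read 8.64, 8.63 and 8.79 with scrambled siRNA and 8.48, 8.33 and 8.63 with LEF1 siRNA, a difference of -0.21 just outside the threshold (limma adjusted p = 0.051). The other XRCC4 probe sets differed by -0.12, 0.12 and -0.02, from the brightest to the dimmest, and none passed. XRCC6 and XRCC5, which encode the Ku ring that binds DNA ends, differed by -0.18 and -0.14 (limma adjusted p = 0.0932 and 0.208). XRCC6 read 13.03, 12.95 and 13.29 against 12.95, 12.70 and 13.08, with overlapping groups. RefSeq names 5 pseudogenes of XRCC6, 3 of UNG, 2 of PARP1 and 1 each of BRCA1, MRE11 and RAD51AP1, and their part in the signal was not tested. PRKDC, the DNA-dependent protein kinase gene, differed in the other direction at its brightest probe set, by 0.25 (limma adjusted p = 0.0609). It read 11.14, 10.66 and 11.26 against 11.27, 11.16 and 11.38, so that batch 2, with the lowest control value, gave 0.50 and the other batches 0.13 and 0.12. The next brightest PRKDC probe set lay below 0 in each batch, at -0.08, -0.03 and -0.19 (difference -0.10, limma adjusted p = 0.452).

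LIG4, the ligase gene of end joining, gave opposite readings at its 2 probe sets. The brighter one read 9.49, 9.25 and 9.32 with scrambled siRNA and 9.56, 9.50 and 9.40 with LEF1 siRNA, a difference of 0.13 that did not pass (limma adjusted p = 0.278). The dimmer one read 9.09, 9.00 and 9.13 against 8.80, 8.74 and 8.86, without overlap. It fell by 0.27 (SE 0.056), with batch differences of -0.29, -0.26 and -0.27 (limma adjusted p = 0.00946 with batch as block, 0.216 without). In every batch the first probe set was above 0 and the second below it, so LIG4 has no single direction in these data.

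Of the 33 genes 17 had several probe sets. In 9 of these the probe sets lay on both sides of 0, in 7 all lay below it and in 1, ATR, all lay above. Of all 72 probe sets 13 had a mean below the median of all probe sets, where differences are compressed, and none of the 7 calls was among them. Labelling starts at the 3' end of transcripts, and which transcript forms each probe set reads was not examined.

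**Figure D3:**
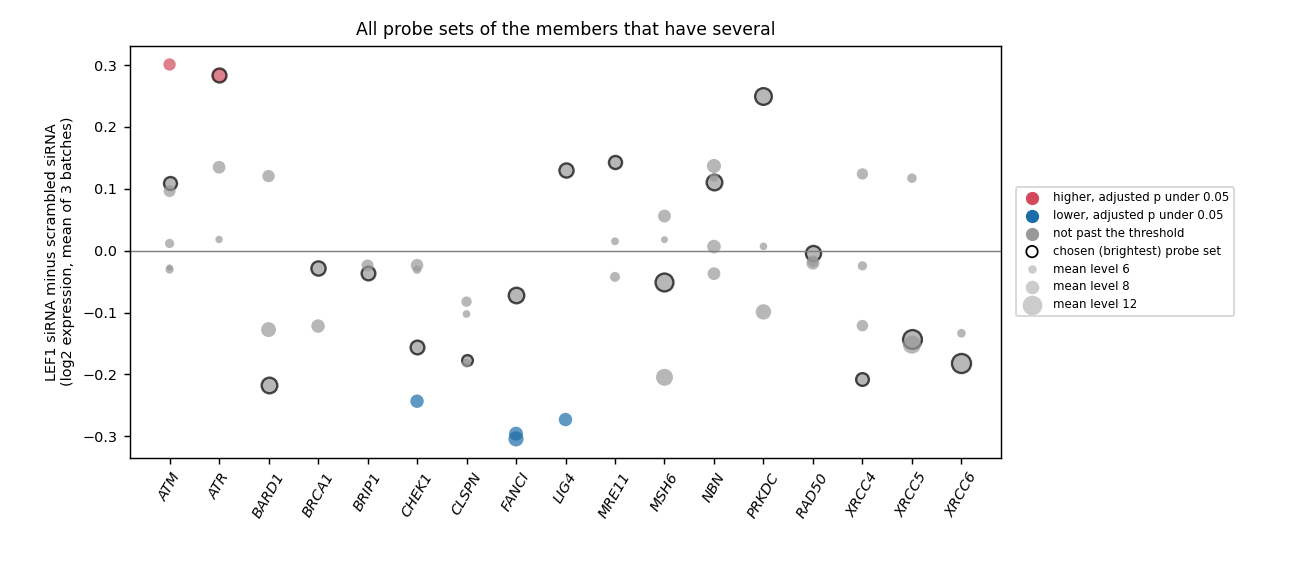
Mean difference over 3 batches, in log2 expression, for every probe set of the 17 genes that have several. Point area grows with the probe set's mean level, black outlines mark the chosen probe set, and colours mark the 6 probe sets that passed with batch as block. The called probe sets of ATM, CHEK1, FANCI and LIG4 are not the chosen ones, and that of ATR is.

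The levels of these genes also differed between batches, in both groups alike. Among the scrambled siRNA arrays batch 2 held the lowest value of 26 of the 33 genes, as it did for 39.1% of all genes, and batch 3 the highest of 23, against 45.2% of all genes. With LEF1 siRNA batch 2 was lowest for 24 (27.7% of all genes) and batch 3 highest for 28 (35.8%). The mean level over the 33 genes was 9.82, 9.70 and 9.94 in the control arrays of batches 1, 2 and 3, and 9.75, 9.63 and 9.95 in the LEF1 siRNA arrays. For 19 of the 33 genes the difference between siRNAs was smaller than the SD of the 3 control arrays, as for 61.3% of all genes.

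Other repair genes moved in both directions. Of 84 measured genes of the same and neighbouring pathways 8 fell and 6 rose with batch as block, beside 1.7% and 6.73% of all genes. None passed without block, where 11 had an unadjusted p under 0.05 (13.1%, beside 9.89% of all genes). UBE2T, the ubiquitin-conjugating partner of FANCL, fell by 0.38 (SE 0.060; limma adjusted p = 0.00175), and PARP2, a relative of PARP1, fell by 0.30. WEE1, the kinase gene that restrains entry into mitosis, rose by 0.35. RAD17, the loader of the checkpoint clamp that activates ATR, rose by 0.31. The nucleotide excision nuclease genes ERCC1 and ERCC4 rose by 0.31 and 0.28. The RAD17, ERCC1 and ERCC4 calls were lost when scaled to the poly-A spike-ins (limma adjusted p = 0.0721, 0.0835 and 0.097), and those of RAD17 and ERCC1 also without batch 2 (0.0842 and 0.134). With that scaling 31 of the 84 fell and 1 rose, beside 21.6% and 2.46% of all genes. The counts without batch 2 were 2 lower and 2 higher of 84, beside 0.622% and 3.24% of all genes. By pathway, 2 of 11 further Fanconi genes fell and 0 rose, 2 of 14 checkpoint genes fell and 3 rose, 2 of 14 base excision genes fell and 0 rose, and 1 of 14 nucleotide excision genes fell and 3 rose. Of 7 translesion genes 1 fell. None passed among 17 recombination, 3 mismatch repair and 4 end joining genes.

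Cell cycle genes, with which many repair genes are transcribed, were lower in the same arrays. Of 18 genes of S phase and DNA replication 9 fell and 0 rose, beside 1.7% and 6.73% of all genes, with a median difference of -0.23. CDC45, a subunit of the replicative helicase, fell by 0.40 and RRM2, a ribonucleotide reductase subunit, by 0.35. Of 16 mitosis genes 8 fell and 0 rose, with a median of -0.20, among them CCNA2 by 0.57 and CDC20 by 0.36. None of either list passed without block, where 5 and 7 had an unadjusted p under 0.05, beside 9.89% of all genes. Without batch 2 the counts of genes that fell were 1 and 3, beside 0.622% of all genes, and RRM2 did not pass (limma adjusted p = 0.0841). The batch means were -0.15, -0.34 and -0.13 for the S phase list and -0.20, -0.29 and -0.15 for the mitosis list, so in all 3 batches these lists lay below the 33 repair genes, at -0.072, -0.071 and 0.009. The part of cell cycle position in the differences of the repair genes was not tested.

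**Figure D4:**
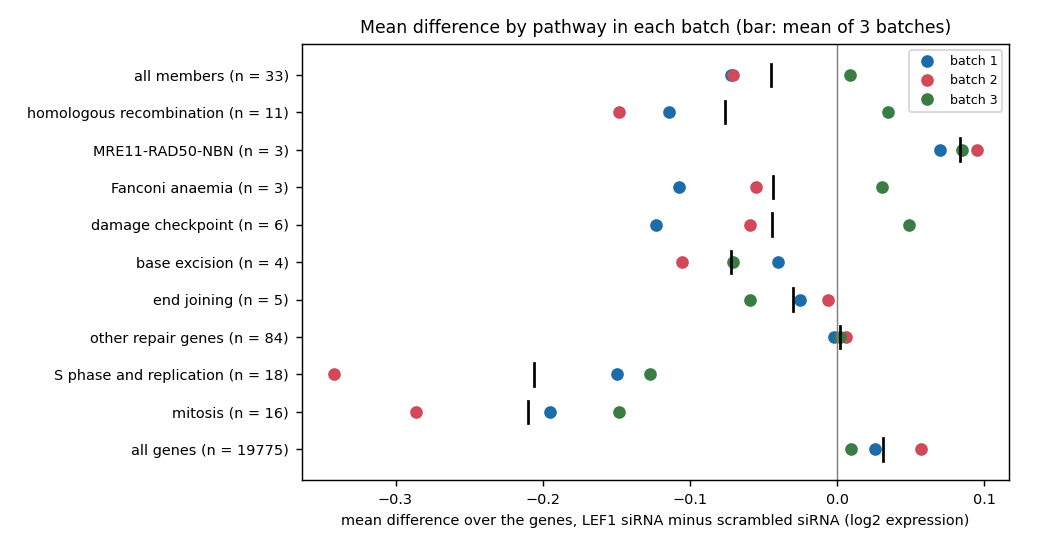
Mean difference over the genes of each pathway, in log2 expression, with coloured points for the 3 batches and a black bar for their mean; mismatch repair, with 1 gene, is left out. The S phase and mitosis lists lie below every repair pathway, and homologous recombination, the Fanconi genes and the damage checkpoint each lie below 0 in batches 1 and 2 and above it in batch 3.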

How the data were processed

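The authors deposited log2 values, 1 for each probe set on each array. That they are log2 values follows from their range, 5.45 to 15.0, and the background correction, normalization and summarisation are not given in the sources used here. Per the labels' protocols, the arrays were hybridised with biotinylated cRNA. The 62 control probe sets were left out and 54613 tested with limma 3.58.1 in R 4.3.3 (lmFit, eBayes), without block and with batch as block, with Benjamini-Hochberg adjustment over all probe sets and two-sided p-values. Gene names came from the platform annotation, checked against RefSeq (GRCh38.p14), read with the data.table package, version 1.17.8, and, in Python 3.11.15, pandas 2.3.3, numpy 2.4.6 and matplotlib 3.10.9.

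The label gives batch as the pairing, and the deviations of the 2 arrays of a batch from their group means had correlations of 0.477, 0.493 and 0.621. The block fit has 2 residual and 12.0 prior degrees of freedom, the other 4 and 4.07, so the block fit borrows most of its spread from all probe sets together. On simulated data over 54613 probe sets with 100 changed by 0.5 and 100 by 1, the fit without block found 44% and 97%, and the block fit 100% of each with 14 false calls among 214. Changes under 0.5, the size of all called members, were not simulated. The simulation gave 141 calls without block and 214 with it, beside 10 and 3328 in the measured arrays. It therefore does not show which fit is better for the measured arrays. The share of changes found and of false calls by either fit in the 6 measured arrays was not tested. Named were LEF1, every member, the 6 other repair genes and the 2 genes of each cell cycle list with the smallest p among those past the threshold with batch as block. Members and lists were chosen with earlier results of these data known, and motif words and printed promoters after the values were seen. Labels call the 3 arrays of a group biological replicates. Precision is limited by the 6 arrays. No pseudocount was needed on the log2 scale. Alternatives covered the block, scalings, dim probe sets, the probe set per gene, the eBayes trend, the threshold, and leaving out arrays or batches.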

Additional observations from a re-analysis of the deposited data

How the results depend on the processing

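With batch as block the chosen member probe sets past the threshold, 1 lower and 1 higher as deposited, became 9 lower after quantile normalization, 3 with equal array medians, 7 after cyclic loess, and 16 lower and 0 higher under poly-A spike-in scaling. They were 3 and 3 with dim probe sets left out (2.92% and 11.2% of all genes), 3 and 2 when the most variable probe set stood for a gene (2.45% and 8.22%), and 7 and 3 at a threshold of 0.1 (2.73% and 9.18%). Over all 72 member probe sets the 5 lower and 2 higher became 14 lower after quantile normalization, 12 lower after cyclic loess, 31 and 0 under poly-A spike-in scaling, 4 higher with dim probe sets left out, and 12 and 4 at 0.1. Leaving out 1 batch gave 1 to 5 lower and 0 to 2 higher chosen probe sets (0.622% to 2.31% and 3.24% to 7.36% of all genes), and 2 to 9 lower and 0 to 3 higher member probe sets. In these data the direction of no called probe set turned. Without block 0 and 0 passed under every alternative run except the replicate block, which gave 1 lower and 1 higher chosen probe set, and 5 and 2 of 72. The median difference over members, -0.036, moved to -0.18 with poly-A scaling and lay between -0.16 and 0.023 when 1 array or batch was left out. Over all probe sets the count with batch as block was 3328, 827 lower and 2501 higher. It was 3315 after quantile normalization, 3240 after cyclic loess, 3465 with dim probe sets left out and 4824 at 0.1. When scaled to the poly-A spike-ins it was 13508, of which 6.48% were higher. Without batch 1, 2 or 3 it was 3880, 1407 and 3626. Without block it went from 10 to 23 after quantile normalization or cyclic loess, 6 with the eBayes trend, 63 at 0.1, and 0 to 8 when arrays or batches were left out. The cause of these shifts was not tested. Most member differences are under 0.3 on the log2 scale, and 19 of 33 were smaller than the SD of the 3 control arrays, as for 61.3% of all genes. How closely 3 batches measure differences of this size was not tested.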
